A study of Homo sapiens with 6 samples.

Results

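Matrix metalloproteinases (MMPs) and their tissue inhibitors (TIMPs) were followed by RNA-seq in 6 libraries of SZ95, a human sebaceous gland line that was immortalised for culture. The 10 genes described, 7 MMPs (MMP1, MMP3, MMP7, MMP9, MMP10, MMP13 and MMP14) and 3 TIMPs (TIMP1, TIMP2 and TIMP3), were taken by gene name from the 58735 genes of the deposited table, and all 10 were found. In 3 libraries the cells had received a plasmid that overexpresses TRPV3, a calcium-permeable cation channel, and in 3 they had received a mock plasmid. All 6 are labelled 24 h and come from the same line, and the labels give no other agent. The design text calls the replicates biological, and its question is the part TRPV3 plays in sebocyte inflammation. The labels do not give the promoter of the plasmid or the share of cells that took it up.

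MMPs are zinc-dependent proteases that are made as inactive precursors and cut collagens, laminins and other matrix proteins once their propeptide is removed. Most are secreted, and MMP14 is anchored in the plasma membrane. TIMPs bind the active site of MMPs and block it, so the balance between both families bears on how fast matrix is turned over. In skin, several MMP genes are known to be induced by cytokines and by the transcription factor AP-1.

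No MMP or TIMP gene passed the test between cells with the TRPV3 plasmid and cells with the mock plasmid; the fitted differences ran from 0.30 for MMP7 to -0.03 for TIMP2 on the log2 scale. Of the 10 genes, 6 had a mean of at least 1 FPKM (fragments per kilobase of exon, corrected for sequencing depth) and were tested, and 0 of the 6 passed at a limma adjusted p under 0.05. Over all 12177 genes tested, 5 passed (0.0411%), all higher with TRPV3, and TRPV3 itself was among them. At an unadjusted limma p under 0.05 there was 1 of the 6, MMP9, beside 4.48% of all genes tested (3.28% higher and 1.21% lower with TRPV3), and limma-voom on recovered reads called 0 of the 6. In MMP9 each TRPV3 library lay above each mock library, which also held for 9.49% of all genes tested. In 0 of the 6 did each lie below, against 5.39% of all genes tested. The other 4 genes, MMP1, MMP3, MMP10 and MMP13, had at most 7 reads in any library. Levels below are FPKM. Differences are log2 ratios of FPKM + 1 from the linear model, positive where TRPV3 is higher and too small for genes of low level, with 95% intervals from limma for the single gene. In such bulk RNA, fewer cells that express a gene and less RNA per cell cannot be told apart.

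The libraries held 17.4 to 18.4 M reads with TRPV3 and 16.0 to 17.5 M reads with mock. TRPV3 itself was at 648 ± 103 FPKM with the TRPV3 plasmid and 0.404 ± 0.04 FPKM with mock (SD, n = 3 each). Its log2 fold change was 8.84 (limma adjusted p = 2.7e-07; exact two-sided permutation p = 0.1, the smallest that 3 against 3 libraries can give). A pair of libraries stood apart. With the tested genes in 4 equal bins by length, the shortest, up to 2675 bases, differed in TRPV3 replicate 1 from the other TRPV3 libraries by a median of 0.32 on the log2 scale, and the longest, from 7059 bases, by -0.26. Mock replicate 3 had 1 to 5 reads in 16068 genes, against 6057 to 6758 genes in the other 5 libraries. Of 13 sebocyte and epithelial markers 10 had a mean of at least 1 FPKM, with KRT7 and KRT5 among the highest. MC5R and KRT79 lay under 1 FPKM, and MC5R had at most 1 read in a library. Of 8 fibroblast, 6 leukocyte, 4 endothelial and 4 melanocyte markers 1, 1, 1 and 0 reached that mean. Those were COL1A1 with 352 to 497 reads in a library, CD14 with 34 to 60 and CDH5 with 104 to 154. Below that mean, the fibroblast marker THY1 had 31 to 44 reads and the leukocyte marker CSF1R had 29 to 49. DCN, PDGFRA and PTPRC, defining for fibroblasts and leukocytes, had at most 8 reads in a library. The summed level of the 8 fibroblast markers was 2.53 to 2.61 FPKM with TRPV3 and 2.79 to 3.37 FPKM with mock. The leukocyte markers summed to 1.55 to 2.36 FPKM with TRPV3 and 1.83 to 2.17 FPKM with mock, the endothelial ones to 1.72 to 1.88 FPKM with TRPV3 and 1.41 to 1.91 FPKM with mock, and the melanocyte ones to 1.13 to 1.21 FPKM with TRPV3 and 0.96 to 1.32 FPKM with mock.

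Of the 10 genes 5 lie in a single cluster. MMP7, MMP10, MMP1, MMP3 and MMP13 stand in this order of position, all on the minus strand, within 435 kb of chromosome 11 (102520508 to 102955734, hg38), together with MMP20, MMP27, MMP8 and MMP12. MMP9 is on chromosome 20 (46008908 to 46016561, plus strand), MMP14 on chromosome 14 (22836557 to 22849027, plus strand), TIMP1 on the X chromosome (47582313 to 47586789, plus strand), TIMP2 on chromosome 17 (78852977 to 78925387, minus strand) and TIMP3 on chromosome 22 (32801701 to 32863043, plus strand). All are annotated as protein-coding, and their deposited gene lengths equal the merged length of all annotated exons. Of genes that share exonic bases with a tested MMP or TIMP, SLC12A5-AS1 overlaps MMP9 by 430 bases on the opposite strand and had at most 12 reads in a library, and CEP295NL overlaps TIMP2 by 198 bases on the same strand and had at most 18. AC022966.1, which overlaps TIMP2 by 367 bases on the opposite strand, had 0 reads in all 6 libraries. WTAPP1, which overlaps MMP1 and MMP3 on the opposite strand, had 0 reads in all 6 libraries.

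Promoter sequences from RefSeq (GRCh38.p14, 250 bases before to 50 after the gene start) were at hand for 5 of the 10 genes. They are shown for MMP7 and MMP10, both of the chromosome 11 cluster, since MMP7 was read in every library and MMP10 in 1 only. Both strands were searched for the AP-1 letters TGANTCA, which read the same on either strand, and for the TATA letters TATAAA. In each of the pair the AP-1 letters, in capitals, begin 67 bases upstream of the start, and the TATA letters follow 30 bases upstream in MMP7 and 31 in MMP10. The AP-1 letters occur in 7.71% and the TATA letters in 11.5% of all 35116 promoters of that length. The same search found neither motif in the windows of MMP14, TIMP1 and TIMP3. It took these exact letters only, so variant sites that differ from them by a letter would be missed.
MMP7 (chr11:102530698-102530997, minus strand, 5′ to 3′): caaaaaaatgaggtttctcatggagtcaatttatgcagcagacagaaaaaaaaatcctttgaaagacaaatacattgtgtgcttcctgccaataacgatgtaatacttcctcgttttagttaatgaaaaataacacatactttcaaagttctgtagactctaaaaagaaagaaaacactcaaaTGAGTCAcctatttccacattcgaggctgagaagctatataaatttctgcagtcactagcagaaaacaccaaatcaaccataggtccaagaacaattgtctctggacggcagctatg
MMP10 (chr11:102780579-102780878, minus strand, 5′ to 3′): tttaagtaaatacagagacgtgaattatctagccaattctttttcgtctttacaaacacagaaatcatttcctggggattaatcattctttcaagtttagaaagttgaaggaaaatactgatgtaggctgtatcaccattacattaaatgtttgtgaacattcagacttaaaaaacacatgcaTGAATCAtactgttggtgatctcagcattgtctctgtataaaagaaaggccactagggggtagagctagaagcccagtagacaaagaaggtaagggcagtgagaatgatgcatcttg

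Of the 9 MMP genes of that cluster, MMP7 was the only one with more than 8 reads in a library. MMP7, or matrilysin, is a small secreted protease of glandular epithelium that lacks the hemopexin domain of most MMPs. It had 123, 65 and 77 reads in TRPV3 replicates 1 to 3, against 57, 60 and 65 reads in mock replicates 1 to 3. As FPKM these were 3.001, 1.564 and 1.895 with TRPV3, against 1.397, 1.591 and 1.536 with mock. TRPV3 replicate 1 was the highest library, replicate 3 lay above every mock library and replicate 2 lay among them, so the groups overlapped. The difference of MMP7 was 0.30 (95% interval -0.09 to 0.70, limma adjusted p = 0.755), the largest among the 6. It was 0.12 without TRPV3 replicate 1.

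MMP1, the interstitial collagenase that cuts fibrillar collagen, had 2, 2 and 7 reads in the TRPV3 libraries, against 2, 2 and 2 in the mock libraries. The 7 reads of TRPV3 replicate 3 correspond to 0.203 FPKM, and the other 5 libraries were at 0.0557 to 0.0626 FPKM. MMP13, a collagenase best known from cartilage, had 1, 5 and 0 reads with TRPV3, against 0, 0 and 2 with mock. Neither gene separated the groups.

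The stromelysins MMP3 and MMP10, which cut many non-fibrillar matrix proteins, had no read in any TRPV3 library. In mock libraries MMP3 had 0, 0 and 5 reads and MMP10 had 0, 0 and 3 reads, all of them in mock replicate 3, the library with many genes at a few reads. The neighbour MMP20, the enamel protease, had 0, 1 and 0 reads with TRPV3 and 0, 0 and 8 with mock, again mostly in that library. The part of that library's excess of low counts in these values was not tested. A count of 0 allows up to 3 reads, which for MMP3 is 0.0804 to 0.0903 FPKM and for MMP10 0.0937 to 0.105 FPKM, for counting error only. A level of MMP3 or MMP10 under that limit was not detectable with TRPV3 at this depth. MMP8, MMP12 and MMP27 had 0 reads in all 6 libraries.

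**Figure D1:**
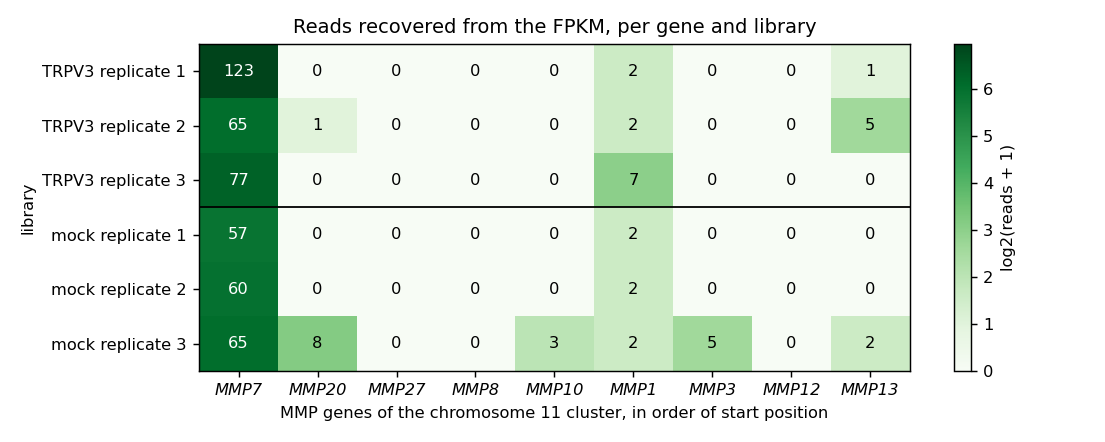
Reads recovered from the FPKM for the 9 MMP genes of the chromosome 11 cluster (columns, in order of position) in each library (rows, TRPV3 plasmid above, mock plasmid below); the colour gives log2(reads + 1). MMP7 has 57 to 123 reads in every library, while no other gene of the cluster exceeds 8.

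MMP9, or gelatinase B, a secreted protease of denatured collagen and basement membrane, was higher with TRPV3 in all libraries but did not pass over all genes. It was at 8.49, 8.76 and 8.44 FPKM in the TRPV3 libraries, against 7.07, 6.70 and 7.82 FPKM in the mock libraries. The TRPV3 libraries lay close together, at 8.56 ± 0.169 FPKM, above all mock libraries, at 7.20 ± 0.573 FPKM (SD, n = 3 each). Behind these stood 350, 366 and 345 reads with TRPV3 and 290, 254 and 333 with mock. The difference was 0.22 (95% interval 0.04 to 0.41, SE 0.08, unadjusted p = 0.0246, limma adjusted p = 0.755). It was positive under all 17 alternatives, from 0.12 to 0.28, with adjusted p from 0.243 to 0.966. Without TRPV3 replicate 1 it was 0.23 (limma adjusted p = 0.574), and with any 1 library left out it ran from 0.18 to 0.28. The value of 0.12 came with the gene-length trend between libraries removed, where MMP9 on the log2 scale was 3.01, 3.31 and 3.29 with TRPV3, against 3.09, 2.99 and 3.19 with mock. On that scale TRPV3 replicate 1 fell among the mock libraries and the groups overlapped.

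MMP14 (MT1-MMP), the membrane-anchored collagenase that also activates the MMP2 precursor, was the most abundant of the 7 MMPs. It was at 22.59, 20.12 and 19.99 FPKM in the TRPV3 libraries, against 19.36, 20.53 and 19.84 FPKM in the mock libraries. Apart from TRPV3 replicate 1, the 5 libraries lay within 19.4 to 20.5 FPKM. The difference was 0.06 (95% interval -0.12 to 0.25, limma adjusted p = 0.779), 0.01 without TRPV3 replicate 1 and -0.03 with TPM scaling. With TPM scaling the median of all genes tested was -0.08.

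**Figure D2:**
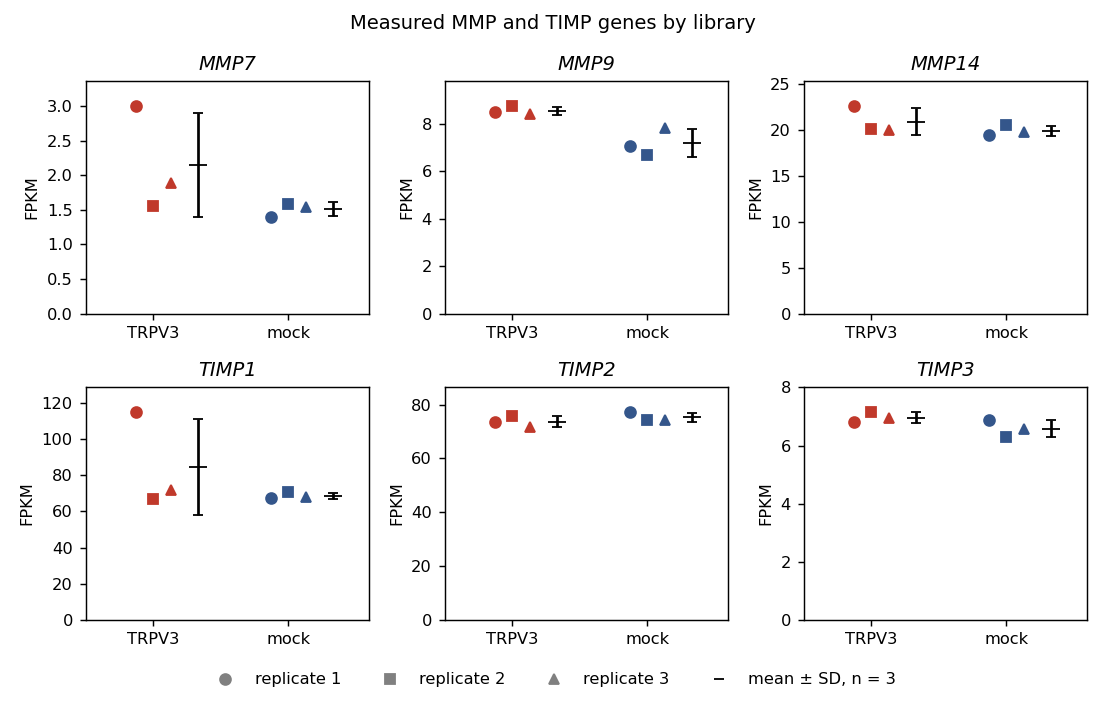
FPKM of the 6 tested MMP and TIMP genes in each library, TRPV3 plasmid (red, left) and mock plasmid (blue, right), with the replicate number as the symbol and the mean ± SD in black (n = 3). MMP9 is the only one of the 6 whose groups do not overlap; MMP7 and TIMP1 have 1 high library, TRPV3 replicate 1.

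TIMP1, a secreted inhibitor of most soluble MMPs that is known to be inducible, stood out in 1 library only. It was at 115, 66.8 and 71.7 FPKM in the TRPV3 libraries, against 67.4, 70.7 and 67.9 FPKM in the mock libraries. TRPV3 replicate 1 stood far above the other 5, TRPV3 replicate 3 was just above the mock libraries and TRPV3 replicate 2 was below all of them. The difference of TIMP1 was 0.25 (95% interval -0.21 to 0.72, SE 0.20, unadjusted p = 0.239, limma adjusted p = 0.755). Without TRPV3 replicate 1 it was 0.01.

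TIMP2, the inhibitor that also bridges MMP14 and the MMP2 precursor at the cell surface, had 73.5, 75.8 and 71.6 FPKM with TRPV3, against 77.2, 74.1 and 74.4 FPKM with mock. These 6 values overlapped within a narrow range. With 6772 to 7639 reads per library it was the most deeply read of the 10 genes, and its difference of -0.03 had a 95% interval of -0.20 to 0.14 (limma adjusted p = 0.880). MMP2 itself, gelatinase A, was at 2.999, 3.387 and 2.874 FPKM with TRPV3, against 3.982, 3.435 and 3.349 FPKM with mock, with a difference of -0.17 (95% interval -0.39 to 0.05, limma adjusted p = 0.755).

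TIMP3, which binds to the matrix and also inhibits ADAM proteases, had 6.80, 7.15 and 6.93 FPKM with TRPV3, against 6.87, 6.30 and 6.56 FPKM with mock. The groups overlapped through TRPV3 replicate 1 and mock replicate 1. The difference was 0.07 (95% interval -0.10 to 0.24, limma adjusted p = 0.756) and -0.01 with TPM scaling, where the median of all genes tested was -0.08. Without TRPV3 replicate 1 the TRPV3 libraries of TIMP3 and MMP9, 2 of the 6, lay above all mock libraries, where 14.1% of all genes tested did.

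The 3 tested genes with the largest differences, MMP7, TIMP1 and MMP9, are also the 3 short ones, with gene lengths of 2323, 1541 and 2336 bases in the shortest of the 4 bins. MMP14, TIMP3 and TIMP2 have 4464, 4603 and 5633 bases. With the gene-length trend removed from each library the difference was 0.20 for MMP7 and 0.12 for TIMP1, and TRPV3 replicate 1 was still the highest library of both. On the log2 scale MMP7 was then 1.76, 1.38 and 1.59 with TRPV3, against 1.34, 1.41 and 1.39 with mock. TIMP1 was 6.56, 6.11 and 6.24 with TRPV3, against 6.20, 6.21 and 6.16 with mock. Over the 6 libraries the genes nearest to the profile of MMP7 on the log2 scale, each centred on its mock mean, were PRDX5, NANS, APOE and TYMP, with root-mean-square differences of 0.031 to 0.041. Each of these 4 was likewise highest in TRPV3 replicate 1, for example NANS at 19.2 FPKM there and 12.2 and 12.8 FPKM in the other TRPV3 libraries, against 11.2 to 12.1 FPKM with mock.

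**Figure D3:**
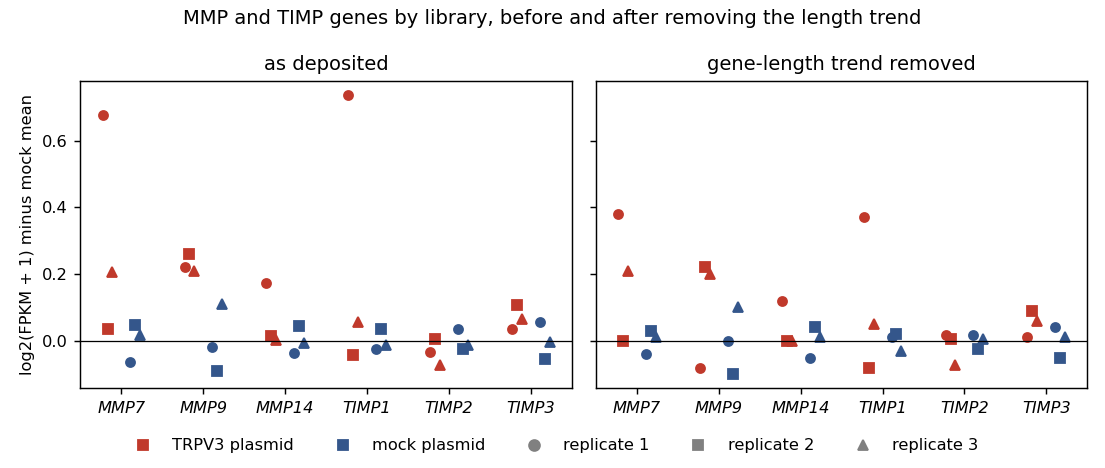
Level of the 6 tested genes in each library on the log2(FPKM + 1) scale minus the mock mean, as deposited (left) and with the gene-length trend of each library removed (right); TRPV3 plasmid in red and left of mock in blue, symbols for replicates. TRPV3 replicate 1 of MMP7 and TIMP1 stays highest in both panels, and TRPV3 replicate 1 of MMP9 drops among the mock libraries on the right.

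In order of level, TIMP1 and TIMP2 led, then came MMP14, then MMP9 and TIMP3, then MMP7, with the other 4 near 0. With TRPV3, TIMP1 averaged 84.6 ± 26.7 FPKM and TIMP2 73.6 ± 2.09 FPKM, which did not differ beyond their spread. With mock, TIMP2 averaged 75.2 ± 1.73 FPKM and TIMP1 68.7 ± 1.78 FPKM, and the libraries did not overlap. MMP9 lay above TIMP3 with TRPV3, at 8.56 ± 0.169 and 6.96 ± 0.179 FPKM, while with mock 7.20 ± 0.573 FPKM of MMP9 and 6.58 ± 0.281 FPKM of TIMP3 overlapped.

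Summed over the 7 MMPs the level was 34.2, 30.6 and 30.5 FPKM in the TRPV3 libraries. In the mock libraries it was 27.9, 28.9 and 29.5 FPKM, without overlap. That sum was not tested, and TRPV3 replicate 1 was its highest library. Of the tested MMPs in it, only MMP9 had groups without overlap, and these overlapped once the gene-length trend was removed. Mean levels with TRPV3 and with mock were 8.56 and 7.20 FPKM for MMP9, 20.9 and 19.9 FPKM for MMP14, and 2.15 and 1.51 FPKM for MMP7. The part of gene length in the sum was not tested. Over all 23 MMP genes listed the summed level was 82.3, 77.7 and 73.7 FPKM with TRPV3. With mock it was 78.2, 76.1 and 80.5 FPKM, and the groups overlapped. The 4 TIMPs summed to 199, 152 and 152 FPKM with TRPV3, against 154, 153 and 151 FPKM with mock. The ratio of summed TIMP to summed MMP levels was 2.42, 1.96 and 2.06 with TRPV3, against 1.97, 2.01 and 1.88 with mock, and only TRPV3 replicate 1 lay far from the rest.

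Of the 16 other MMPs 4 were measured, and 0 of the 4 passed in either direction (limma; 0 at an unadjusted p under 0.05 and 0 by voom), with a median difference of -0.11 beside 0.01 over all genes tested. MMP15, another membrane-anchored MMP, was more abundant than MMP14, at 32.5 ± 1.34 FPKM with TRPV3 and 34.5 ± 1.63 FPKM with mock (difference -0.08). MMP28, or epilysin, an epidermal MMP, was at 6.89 ± 1.11 FPKM with TRPV3 and 7.63 ± 0.378 FPKM with mock (-0.14, or -0.24 without TRPV3 replicate 1 at an adjusted p of 0.51 by limma, and -0.05 without TRPV3 replicate 3), and MMP25 at 1.79 ± 0.133 FPKM with TRPV3 and 1.83 ± 0.258 FPKM with mock (-0.02). Of 4 other inhibitors 3 were measured, and 0 passed by limma and 0 by voom. At an unadjusted limma p under 0.05 there was 1, higher with TRPV3, beside 3.28% of all genes tested. TFPI2, a protease inhibitor of the matrix, was that one, at 37.7, 32.3 and 31.5 FPKM with TRPV3, against 28.5, 28.3 and 26.6 FPKM with mock. Its TRPV3 libraries lay above all mock libraries, which also held for 9.49% of all genes tested. The difference of TFPI2 was 0.27 (95% interval 0.06 to 0.49, limma adjusted p = 0.755). TIMP4 was at 2.48 ± 0.475 FPKM with TRPV3 and 2.32 ± 0.131 FPKM with mock, and the membrane-anchored inhibitor RECK at 1.17 ± 0.0847 FPKM with TRPV3 and 1.08 ± 0.0399 FPKM with mock. A2M had at most 7 reads in a library, in mock replicate 3.

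**Figure D4:**
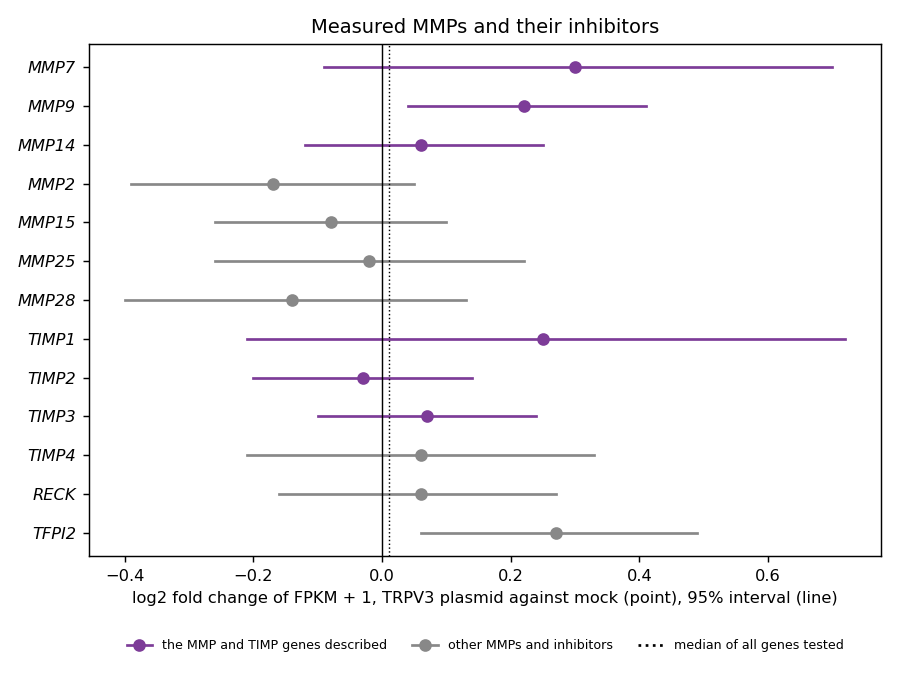
Fitted log2 fold change of FPKM + 1, TRPV3 plasmid against mock (points), with 95% intervals for the single gene (lines), for the tested MMPs and inhibitors; the genes described are in purple, other MMPs and inhibitors in grey, and the dotted line marks the median of all genes tested, 0.01. Intervals of MMP9 and TFPI2 lie above 0, while those of the other 11 genes include 0.

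Genes that induce, activate or surround MMPs were read from the same fit. Of 13 measured AP-1 and ETS factors 0 passed with all libraries (limma; 5 at an unadjusted p under 0.05, all higher with TRPV3, beside 3.28% of all genes tested; 1 by voom), with a median of 0.18. The groups did not overlap in 6, all higher, beside 9.49% of all genes tested. FOSL1, the AP-1 subunit Fra-1, was at 82.9, 74.1 and 78.0 FPKM with TRPV3, against 43.5, 44.0 and 47.9 FPKM with mock. Every TRPV3 library of FOSL1 lay far above every mock library (difference 0.78, limma adjusted p = 0.0605), and it passed without TRPV3 replicate 1 (0.74, limma adjusted p = 0.0117; 2.77e-05 to 0.547 over the 17 alternatives). ATF3, a stress-induced factor of the same family, was at 3.297, 4.039 and 3.480 FPKM with TRPV3, against 1.508, 1.998 and 2.296 FPKM with mock (0.66, limma adjusted p = 0.374). The abundant FOSL2 was at 30.70, 47.98 and 49.98 FPKM with TRPV3, against 52.00, 48.55 and 46.85 FPKM with mock (-0.22), and TRPV3 replicate 1 alone was low.

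Of 13 measured activators and inducers of MMPs 0 passed (limma; 2 at an unadjusted p under 0.05, 0 by voom), with a median of 0.05. The pair was the urokinase receptor PLAUR, at 21.5, 15.5 and 14.8 FPKM with TRPV3 against 10.7, 10.2 and 12.1 FPKM with mock (0.59, limma adjusted p = 0.687), and urokinase itself, PLAU, at 14.9, 12.7 and 11.7 FPKM with TRPV3 against 9.67, 9.59 and 10.7 FPKM with mock (0.35, limma adjusted p = 0.755). Both were higher with TRPV3, and 3.28% of all genes tested were higher at that unadjusted p. In both genes each TRPV3 library lay above each mock library (9.49% of all genes tested). PCSK5, named after its values were seen, went the other way (5.39%). It was at 1.45, 1.59 and 1.75 FPKM with TRPV3, against 1.79, 1.84 and 1.85 FPKM with mock (-0.12, limma adjusted p = 0.755). PLAUR passed by voom without TRPV3 replicate 1 (0.46, limma-voom adjusted p = 0.0106). Over the 17 alternatives the adjusted p of PLAUR ran from 0.0106 to 0.966. The abundant BSG, an MMP inducer also called EMMPRIN, was at 193, 164 and 162 FPKM with TRPV3, against 166, 168 and 165 FPKM with mock (0.05). ST14, the membrane protease matriptase, was at 85.5, 80.7 and 80.1 FPKM with TRPV3, against 77.5, 78.1 and 80.3 FPKM with mock (0.06).

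Of 10 measured ADAM and ADAMTS proteases 0 passed by limma and 0 by voom. Their median was -0.11, or 0.01 without TRPV3 replicate 1. An unadjusted limma p under 0.05 was found for 1, higher with TRPV3, beside 3.28% of all genes tested. The groups did not overlap in 1 gene that was higher, ADAM8, beside 9.49% of all genes tested. Nor did they overlap in 2 that were lower, ADAM23 and ADAMTS7, beside 5.39%. ADAM8, the gene of that unadjusted p, was at 54.9, 52.3 and 53.1 FPKM with TRPV3, against 43.0, 46.8 and 48.9 FPKM with mock (0.21). ADAM9 was at 44.2, 56.7 and 58.5 FPKM with TRPV3, against 59.7, 57.3 and 53.1 FPKM with mock (-0.10). ADAM23 was at 1.14, 1.30 and 1.28 FPKM with TRPV3, against 1.69, 1.46 and 1.57 FPKM with mock (-0.20). ADAMTS7, named after its values were seen, was at 2.69, 2.77 and 2.45 FPKM with TRPV3, against 2.81, 2.83 and 3.4 FPKM with mock (-0.14).

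Of 21 measured matrix proteins that MMPs can cut, 0 passed by limma and 0 by voom with all libraries. At an unadjusted limma p under 0.05 there was 1, higher with TRPV3, beside 3.28% of all genes tested. A difference below 0 was found in 18, and the median was -0.18, or -0.07 without TRPV3 replicate 1. With the gene-length trend removed the median was -0.09 and 14 were below 0. Every TRPV3 library lay below every mock library in 5 of the 21 (5.39% of all genes tested) and above in 1 (9.49%). Those 5, named after their values were seen, were each at a limma adjusted p of 0.755. They were the collagen genes COL1A1 (-0.17), COL4A1 (-0.24) and COL4A5 (-0.20), the laminin chain LAMA5 (-0.37) and the proteoglycan AGRN (-0.19). All 5 lie in the longest of the 4 length bins, with 9819 to 14738 bases. In that bin TRPV3 replicate 1 differed from the other TRPV3 libraries by a median of -0.26. It was the lowest TRPV3 library of COL4A1, COL4A5, LAMA5 and AGRN. In COL1A1 it was the highest, at 2.16 FPKM against 2.05 and 2.05 FPKM in the other TRPV3 libraries. The part of gene length in these differences was not tested. LAMB3, a chain of the epithelial laminin 332, was higher with TRPV3. It was at 251, 241 and 253 FPKM with TRPV3, against 184, 179 and 189 FPKM with mock (0.43, limma adjusted p = 0.374). Its groups did not overlap, and it passed by voom without TRPV3 replicate 1 (0.43, limma-voom adjusted p = 0.000453; 0.000453 to 0.966 over the 17 alternatives). The basement-membrane proteoglycan HSPG2 was at 5.87, 17.6 and 20.4 FPKM with TRPV3, against 22.5, 19.8 and 19.4 FPKM with mock (-0.62), and TRPV3 replicate 1 alone was far below the rest.

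**Figure D5:**
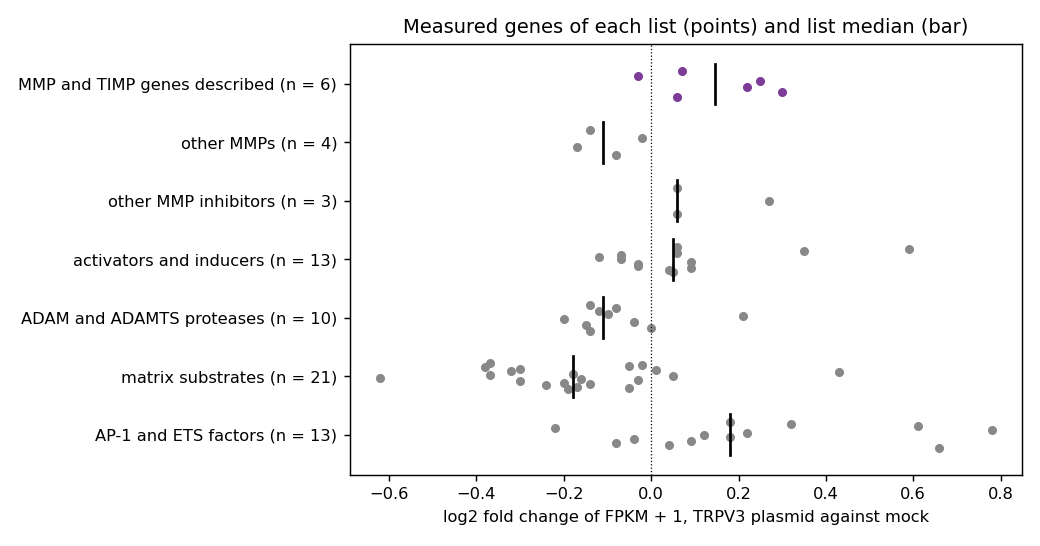
Fitted log2 fold change of FPKM + 1, TRPV3 plasmid against mock, for each measured gene (point) of the MMP and TIMP genes described and of 6 related lists, with the list median as a bar. The medians run from -0.18 for matrix substrates to 0.18 for AP-1 and ETS factors, and the points furthest to the right are 3 AP-1 genes and PLAUR.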

How the data were processed

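Per the file headers, the authors deposited 1 FPKM value for each gene in each library, beside gene lengths and coordinates. The submitters' processing notes name HISAT2 2.0.5 and hg38. How reads were counted, and whether by strand, is not stated in the labels. Coordinates and lengths of the 10 genes equalled those of GENCODE 29. The product of FPKM and gene length was a whole multiple of 1 step per library for 100% of values above 0 (tolerance 0.02 reads), so reads were recovered. Replicates of a group differed by a chi-square per degree of freedom of 2.52 to 54.2, so none was a repeat.

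In R 4.3.3, limma 3.58.1 was run on log2(FPKM + 1) of all genes averaging 1 FPKM or more, with group as the term, a mean-variance trend in the empirical Bayes step and p-values adjusted after Benjamini and Hochberg over all genes tested; a gene was called under 0.05. The fit was tested on simulated data. These had a single spread taken from the mock libraries, and no length trend or library that stood apart. The 10 genes and all lists were chosen with earlier results of these data known, and no set test was run. Named beside the 10 were TRPV3, other MMPs and TIMP4 with at least 1 FPKM, genes sharing exonic bases, from each list called genes, the 2 of highest mean and the 2 of largest difference, and the 4 nearest to the tested gene of largest difference; 1 gene that this rule names is not reported here. MMP1 neighbours, A2M, RECK and markers were named after their values were seen. Alternatives were no filter, a 5 FPKM filter, a pseudocount of 0.1, TPM and quantile scaling, no trend, the replicate number as a block, a length trend (lowess, span 0.3) removed, voom on recovered reads with and without TRPV3 replicate 1, and each library left out; leaving out TRPV3 replicate 1 and mock replicate 3 together was chosen after seeing the data. Figures used Python 3.11.15 and matplotlib 3.10.9.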

Additional observations from a re-analysis of the deposited data

How the results depend on the processing

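Across the 17 alternatives 0 of the tested MMP and TIMP genes were called, including with the replicate block, with no filter (10 tested) and by voom. TPM scaling turned MMP14 to -0.03, TIMP3 to -0.01 and TIMP4 to -0.01. The median of all genes tested was -0.08 with TPM scaling, against 0.01 in the main fit. TIMP4 was also -0.07 with the length trend removed and by voom without TRPV3 replicate 1, and -0.02 without both libraries that stood apart; MMP25 was 0.00 with quantile scaling. With 1 library left out TIMP4 ran from -0.05 to 0.13 and MMP25 from -0.08 to 0.05. Over all genes, 5 calls became 2 with no filter, 3 with a filter of 5 FPKM, 3 with the replicate block, 67 by voom without TRPV3 replicate 1, 2 to 8 with 1 library left out, and 9 without both libraries. In the related lists, 0 calls became 1 by voom (FOSL1), 6 by voom without TRPV3 replicate 1 (FOSL1, JUN, ATF3, LAMB3, LAMA3 and PLAUR, of which JUN and LAMA3 were chosen after their values were seen), 0 to 1 with 1 library left out, and 1 without both libraries. The causes were not tested. No pairing by replicate number was seen. Deviations from the group mean correlated across genes at -0.272, -0.039 and -0.168 for same-numbered libraries, and at -0.157 to 0.218 for different-numbered ones. Within a group these deviations sum to 0, so the check cannot exclude a pairing. The block changed no call of an MMP or TIMP gene. Depth limits MMP1, MMP3, MMP10 and MMP13, where 3 reads equal up to 0.105 FPKM.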
